A study of Homo sapiens with 5 samples.

Results

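RMRP and RPPH1 are the RNA components of 2 related ribonucleases, RNase MRP and RNase P, and they are 2 of the 4202 genes in the deposited expression table of a breast cancer cell line. They were picked by gene symbol, with their levels in these libraries already known, so those levels are given as a description and none was tested. Total RNA of MDA-MB-231 cells, an established human line of the triple-negative, mesenchymal-like type, was sequenced after 4 h of CGI-1746, LU-102, both agents in combination, bortezomib, or mock treatment. CGI-1746 is an inhibitor of the kinase BTK, LU-102 is an inhibitor of the trypsin-like sites of the proteasome, and bortezomib is a clinical proteasome inhibitor that served in the study to show what blocking the proteasome alone changes. There was 1 library for each of 5 conditions, from which no replicate error can be had, and every interval below covers counting error only.

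RNase P cuts the leader from precursor tRNAs, and RNase MRP cuts the precursor of ribosomal RNA at a site between the small and the large subunit RNAs. In human cells each enzyme is built on its own RNA, which folds around a related catalytic core and binds a set of proteins that the enzymes largely share. Both RNAs are made by RNA polymerase III from promoters that lie upstream of the transcribed part, a class that also serves RN7SK, the nuclear RNA that holds back the elongation factor P-TEFb. Inherited variants of RMRP cause cartilage-hair hypoplasia, a skeletal and immune disorder.

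The sequences of both RNAs are shown because the assignment of reads to one or the other rests on how little they share. They are GENCODE transcripts on GRCh38, 5′ to 3′, and both genes lie on the minus strand. RMRP is 268 bases at chr9:35657751-35658018 with 63.1% G and C. RPPH1 is 333 bases at chr14:20343075-20343407 with 64.6% G and C, of which bases 1 to 300 are shown. Capitals mark the longest run of bases that the transcripts have in common.
RMRP: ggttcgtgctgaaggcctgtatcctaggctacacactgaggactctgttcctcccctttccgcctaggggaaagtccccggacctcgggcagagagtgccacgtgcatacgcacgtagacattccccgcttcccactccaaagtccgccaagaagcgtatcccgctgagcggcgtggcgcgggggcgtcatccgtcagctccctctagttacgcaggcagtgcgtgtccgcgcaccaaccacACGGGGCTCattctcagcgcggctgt
RPPH1: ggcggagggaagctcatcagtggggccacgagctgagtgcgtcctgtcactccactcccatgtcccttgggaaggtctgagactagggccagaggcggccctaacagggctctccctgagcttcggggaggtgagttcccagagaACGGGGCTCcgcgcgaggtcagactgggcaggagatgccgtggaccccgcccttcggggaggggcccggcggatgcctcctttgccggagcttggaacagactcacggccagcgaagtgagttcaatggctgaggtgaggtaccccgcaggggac
This run is 9 bases long, at bases 243 to 251 of RMRP and 146 to 154 of RPPH1, and the reads were 150 bases long. A pairwise alignment matched 166 of 258 aligned bases, or 64.3%. GENCODE also lists copies elsewhere in the genome. RMRPP5 on chromosome 9 was 74.8% identical to RMRP with a longest shared run of 16 bases, RPPH1-3P on chromosome 4 was 79.6% identical to RPPH1 with a run of 18 bases, and RPPH1-2P on chromosome 14 was 62.7% identical with a run of 11 bases. None of these copies is among the 4202 genes of the table.

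Each gene starts back to back with a protein gene on the other strand, and the shared stretch holds the promoter of the RNA. The RefSeq promoter windows of those neighbours, CCDC107 beside RMRP and PARP2 beside RPPH1, run from 250 bases before to 50 bases after the neighbour's start on GRCh38.p14, and they are printed on the plus strand. Capitals mark matches to ATGCAAAT, the octamer, and to TATAA, the core of the TATA box, each searched on both strands, so that TATAA on the minus strand reads as TTATA.
CCDC107, beside RMRP, chr9:35658042-35658341: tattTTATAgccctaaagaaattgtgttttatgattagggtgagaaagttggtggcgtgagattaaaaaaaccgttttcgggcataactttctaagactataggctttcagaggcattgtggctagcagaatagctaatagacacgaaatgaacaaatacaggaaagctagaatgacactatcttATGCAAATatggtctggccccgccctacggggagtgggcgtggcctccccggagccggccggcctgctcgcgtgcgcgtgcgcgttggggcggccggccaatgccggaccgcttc
PARP2, beside RPPH1, chr14:20343385-20343684: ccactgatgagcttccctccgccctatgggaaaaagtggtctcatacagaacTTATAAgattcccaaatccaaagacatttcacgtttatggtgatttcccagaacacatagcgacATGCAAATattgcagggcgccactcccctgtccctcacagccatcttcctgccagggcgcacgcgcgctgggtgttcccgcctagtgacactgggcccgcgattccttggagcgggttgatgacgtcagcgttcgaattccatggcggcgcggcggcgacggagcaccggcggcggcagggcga
The neighbour's start lies 274 bases from the first base of RMRP and 228 bases from that of RPPH1. Upstream of RMRP, a TATAA on its own strand covers bases 28 to 32 before the first base and the octamer covers bases 209 to 216. Upstream of RPPH1, TATAA covers bases 30 to 34 on its own strand and 31 to 35 on the other, the matches overlapping, and the octamer covers bases 94 to 101. Of 35116 RefSeq promoter windows of the same length, 1.77% hold ATGCAAAT, 20.4% hold TATAA and 0.575% hold both, as these windows do. A match is a description of letters, and no binding was measured here.

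The deposited value per gene and library is a normalized expression signal whose scale is not stated, called a level here. The product of level and gene length came in whole steps of 1 size per library for 48 of 62 short RNA genes, to within 0.1 read in all 5 libraries, so whole reads could be recovered for both RNAs. RMRP came out whole at a length of 268 bases and at no other length from 255 to 285, and RPPH1 came out whole at 341 bases, its RefSeq length. Should the level be RPKM, a scale no source states, the implied depths are 16998110, 17081072, 16993335 and 18598126 reads under CGI-1746, LU-102, the combination and bortezomib, and 16839928 reads in mock. Whether a read here is 1 end or 1 pair is not known.
The bortezomib library stands apart from the other 4. It had 2231 genes at a level of 1 or more, against 4161 to 4177 in the other libraries. Log2 ratios below are of level + 1, and the median log2 ratio over all genes compared with mock was -0.98 with bortezomib, against -0.06 to 0.03 with the other treatments. All 8 mesenchymal markers looked for, VIM and AXL among them, were measured, at a summed level of 43.4 with bortezomib and 191 to 212 in the other libraries. Of 8 luminal markers, KRT8, KRT18 and KRT19 were measured, at a summed level of 10.2 with bortezomib and 48.2 to 53.1 in the other libraries. Of 4 blood markers CD68 was the only one measured, at a level of 2.26 to 8.68 over the 5 libraries, and the 3 endothelial markers are not in the table.

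Both RNAs were among the most abundant genes per unit of length in every library, though lower in that order with bortezomib. RMRP, the RNase MRP RNA, had a level of 9343 with CGI-1746, 11658 with LU-102, 12369 in the combination and 603 under bortezomib, against 8339 in mock. RPPH1, the RNase P RNA, had a level of 7265 with CGI-1746, 11783 with LU-102, 8618 in the combination and 1328 under bortezomib, against 7110 in mock. RMRP was thus highest with the combination, RPPH1 was highest with LU-102, and both were far lower with bortezomib than in any other library. In order of level over the libraries, RMRP ran bortezomib, mock, CGI-1746, LU-102, combination, and RPPH1 ran bortezomib, mock, CGI-1746, combination, LU-102. By level per length RMRP and RPPH1 held places 3 and 4 among all 4202 genes, in either order, in the 4 libraries other than bortezomib, where RMRP was the 16th and RPPH1 the 10th. Together with RN7SL1 and RN7SL2, the RNAs of the signal recognition particle, they were the 4 highest genes in each of those 4 libraries. RMRP made up 9.28% of the summed levels with CGI-1746, 9.24% with LU-102, 9.94% in the combination and 0.445% under bortezomib, against 8.40% in mock. RPPH1 made up 7.22%, 9.34%, 6.93% and 0.980% in the same order, against 7.16% in mock.

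**Figure D1:**
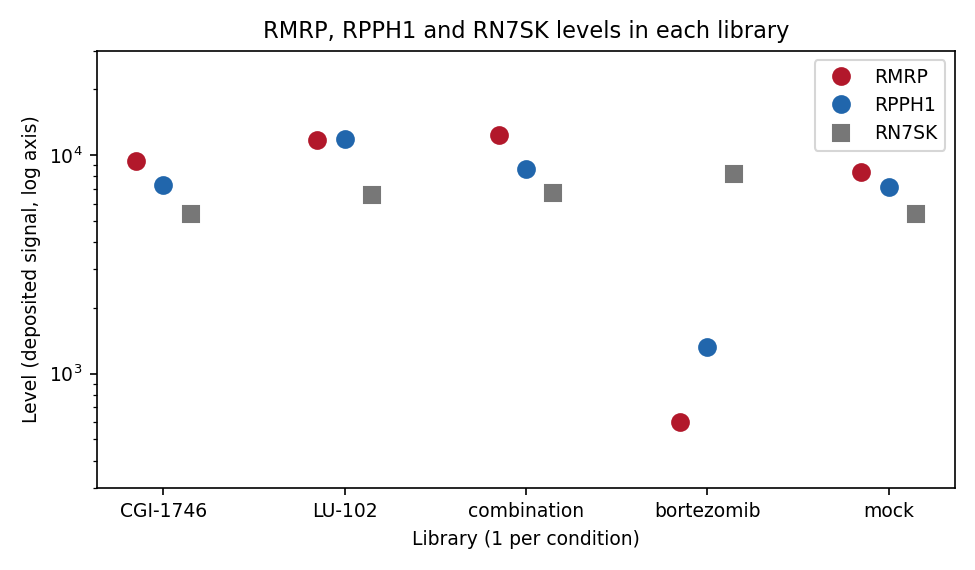
Deposited levels of RMRP, RPPH1 and RN7SK on a log axis, with 1 point per gene and library. RMRP and RPPH1 lie between 7110 and 12369 except with bortezomib, where they are at 603 and 1328 while RN7SK is at 8193.

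Of the 4 treatments set against mock, bortezomib gave the widest difference for both RNAs. RMRP had 3004 reads with bortezomib, against 37633 reads in mock. RPPH1 had 8422 reads with bortezomib, against 40827 reads in mock. On the level scale the ratio of bortezomib to mock was 0.0723 for RMRP (95% exact interval 0.0696 to 0.0750), so that mock was 13.8-fold higher, and 0.187 for RPPH1 (0.182 to 0.191), with mock 5.35-fold higher. The log2 ratios were -3.79 for RMRP and -2.42 for RPPH1, and they were -2.81 and -1.44 after subtraction of the all-gene median of -0.98. On the scale of level + 1, RMRP was the 23rd lowest and RPPH1 the 151st lowest of 4189 genes compared. The added 1 draws genes of low level towards 0 and leaves these abundant RNAs where they are. By the plain ratio, with no pseudocount, the all-gene median was -1.63, RMRP was the 85th lowest and RPPH1 the 833rd lowest. The ranks given for the other comparisons are likewise on the scale of level + 1. A 2-fold lower level was common in this library, at 48.1% of genes, while 1.38% of genes were 2-fold or more higher. That split depends on scaling, with 208 genes higher and 727 lower by median-of-ratios scaling, against 58 and 2015 as deposited. Median-of-ratios scaling rests on the 445 genes at a level of 5 or more in all 5 libraries. It leaves out genes that fell below 5 with bortezomib, and the all-gene median under it was -0.44. Although the all-gene median was low, the summed levels were 135512 with bortezomib, against 99255 in mock. Cell number and RNA per cell cannot be read from such levels, and the part of the low median in the values of RMRP and RPPH1 was not tested.

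RN7SK went the other way in the same libraries. RN7SK had a level of 5376 with CGI-1746, 6575 with LU-102, 6709 in the combination and 8193 under bortezomib, against 5360 in mock. It was highest with bortezomib, at 50591 reads against 29969 reads in mock, a log2 ratio of 0.61 on the deposited scale. Within the bortezomib library there were 0.0594 RMRP reads per RN7SK read (0.0572 to 0.0616), against 1.26 in mock (1.24 to 1.27). For RPPH1 the ratio to RN7SK was 0.166 with bortezomib (0.163 to 0.170), against 1.36 in mock (1.34 to 1.38). These ratios are free of the scaling between libraries, and their log2 difference between bortezomib and mock was -4.40 for RMRP and -3.03 for RPPH1.

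Short RNA genes as a class were mostly higher with bortezomib, and RMRP and RPPH1 were the lowest of them. The class was taken after values had been seen, as non-coding RNA genes under 450 bases. Of 62 such genes compared, RMRP was the lowest and RPPH1 the second lowest, with the pseudocount and without it. Of the other 60, 48 were above 0 and 31 of these were 2-fold or more higher, beside 1.38% of all genes, with a median log2 ratio of 1.13. In the other direction 6 of the 60 were 2-fold or more lower, beside 48.1% of all genes. Some of those higher had few reads in mock, such as SNORA71D with 1 and SNORA7B with 2, against 111 and 78 with bortezomib. After RMRP and RPPH1 the lowest was SCARNA6, a guide RNA of Cajal bodies, at -1.74 on 16 reads with bortezomib against 59 reads in mock. SCARNA12, SCARNA28, SNORA23, SCARNA9L and SNORD133 were also 2-fold or more lower, at -1.30, -1.23, -1.10, -1.04 and -1.004, with 16 to 127 reads with bortezomib and 36 to 290 in mock. With CGI-1746, LU-102 and the combination, 40 of 58, 39 of 59 and 44 of 58 of the others were above 0. Their median log2 ratios were 0.18, 0.29 and 0.31. In the same order RMRP was the 30th, 45th and 47th lowest of 60, 61 and 60 short RNA genes. RPPH1 was the 20th, 55th and 29th lowest. Without a pseudocount the places were 30, 38 and 41 for RMRP and 20, 52 and 27 for RPPH1.

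**Figure D2:**
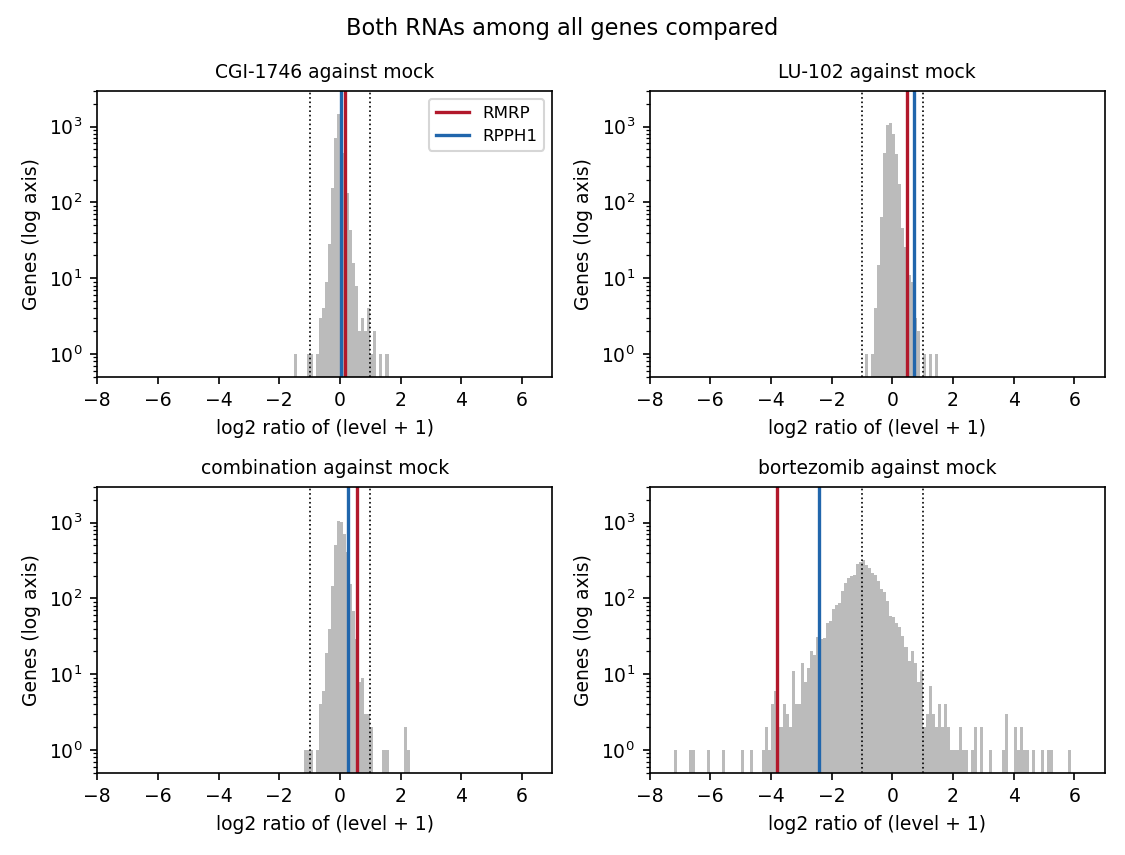
Histograms of the log2 ratio of level + 1 to mock over all genes compared, in 1 panel per treatment with a log count axis, dotted lines at 2-fold and coloured lines for RMRP and RPPH1. With bortezomib the median lies at -0.98 while 58 genes are 2-fold or more higher, and RMRP at -3.79 and RPPH1 at -2.42 lie in its lower tail.

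LU-102 alone was the treatment in which RPPH1 differed more from mock than RMRP did. RPPH1 had 68630 reads with LU-102, against 40827 reads in mock, a level ratio of 1.66 (1.64 to 1.68). RMRP had 53367 reads with LU-102, against 37633 reads in mock, a level ratio of 1.40 (1.38 to 1.42). The log2 ratios were 0.73 for RPPH1, the seventh highest of 4193 genes, and 0.48 for RMRP, the 33rd highest, or the 19th and the 61st by the plain ratio. Neither reached 2-fold, as 0.0715% of genes did in either direction. RN7SK was also higher with LU-102, at a log2 ratio of 0.29, and relative to RN7SK the log2 values were 0.43 for RPPH1 and 0.19 for RMRP.

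CGI-1746 alone left both RNAs near their mock levels. RMRP had 42562 reads with CGI-1746, against 37633 reads in mock, a level ratio of 1.12 (1.10 to 1.14) and a log2 ratio of 0.16. RPPH1 had 42109 reads with CGI-1746, against 40827 reads in mock, a level ratio of 1.02 (1.01 to 1.04) and a log2 ratio of 0.03. They were the 336th and the 1390th highest of 4186 genes, or the 543rd and the 1492nd by the plain ratio, of which 0.167% were 2-fold or more apart in either direction. With no replicate libraries, differences of this size cannot be set against the spread between cultures.

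In the combination the order of the RNAs was reversed relative to LU-102 alone. RMRP had 56330 reads with the combination, against 37633 reads in mock, a level ratio of 1.48 (1.46 to 1.503) and a log2 ratio of 0.57, the 36th highest of 4189 genes, or the 97th by the plain ratio. RPPH1 had 49941 reads with the combination, against 40827 reads in mock, a level ratio of 1.21 (1.20 to 1.23) and a log2 ratio of 0.28, the 348th highest or by the plain ratio the 645th, though at -0.046 relative to RN7SK. In this comparison 0.215% of genes were 2-fold or more apart. Against CGI-1746, the combination was higher for RMRP at a ratio of 1.32 (1.31 to 1.34) and for RPPH1 at 1.19 (1.17 to 1.20), with 0.0954% of genes past 2-fold, and relative to RN7SK the RPPH1 difference was -0.073 on the log2 scale. Against LU-102, the combination was lower for RPPH1 at a ratio of 0.731 (0.723 to 0.740), the 16th lowest of 4193 genes or by the plain ratio the 37th, with 0.143% past 2-fold. For RMRP the same ratio was 1.06 (1.05 to 1.07), close to the all-gene median. Its log2 value of 0.09 turned to -0.052 under median-of-ratios scaling. It turned to -0.051 under scaling to the sum of levels without the 10 most abundant genes of any library.

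The 4 libraries of mock, CGI-1746, LU-102 and combination form a layout in which the inhibitors are crossed. For RPPH1 the log2 effect of CGI-1746 was -0.45 in the presence of LU-102, against 0.03 in its absence. The log2 value of the combination was therefore 0.48 below the sum of the single effects, a departure of -0.48 (-0.51 to -0.46), the 24th lowest of 4197 genes. That rank is on the scale of level + 1, which draws genes of low level towards 0. No rank of the departure by the plain ratio was taken. For RMRP the effect of CGI-1746 was 0.09 with LU-102, against 0.16 without it, a departure of -0.08 (-0.10 to -0.05), which was -0.25 by median-of-ratios scaling. The departure was 0.02 for RN7SK and had a median of 0.10 over all genes.

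The contrasts among the inhibitors placed bortezomib apart from the combination and from LU-102. RMRP was 20.5-fold higher with the combination than with bortezomib (19.8 to 21.3), the 10th highest of 4198 genes, and RPPH1 was 6.49-fold higher (6.34 to 6.64), the 102nd highest, or the 38th and the 564th by the plain ratio, where 49.4% of genes were 2-fold or more higher. That comparison held 2073 genes higher and 53 lower as deposited, against 609 and 192 by median-of-ratios scaling. RMRP was 19.3-fold higher with LU-102 than with bortezomib (18.6 to 20.1) and RPPH1 was 8.87-fold higher (8.67 to 9.08), the 11th and the 48th highest of 4192 genes, or the 42nd and the 238th by the plain ratio, of which 43.1% were 2-fold or more higher, with 1805 genes higher and 57 lower as deposited, against 657 and 183 by median-of-ratios scaling. CGI-1746 against LU-102 gave a ratio of 0.801 for RMRP (0.791 to 0.812) and 0.617 for RPPH1 (0.609 to 0.624), the 75th and the ninth lowest of 4194 genes, or the 153rd and the 20th by the plain ratio, with 0.0954% past 2-fold. The last 2 of these comparisons share the LU-102 library, and the first 2 share the bortezomib library. The sources used here give no doses, so differences between the inhibitors are differences between these treatments as applied.

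The ratio of RMRP to RPPH1 within a library does not depend on how libraries were scaled. There were 1.01 RMRP reads per RPPH1 read with CGI-1746 (0.997 to 1.02), 0.778 with LU-102 (0.769 to 0.786), 1.13 in the combination (1.11 to 1.14) and 0.357 under bortezomib (0.342 to 0.372), against 0.922 in mock (0.909 to 0.935). Per unit of length, as the ratio of levels, it was 1.29, 0.989, 1.44 and 0.454 in the same order, against 1.17 in mock. RMRP was thus the lower of the pair per length in the LU-102 and bortezomib libraries and the higher in the other 3. Relative to mock the log2 shift of this ratio was 0.13 with CGI-1746, -0.25 with LU-102, 0.29 in the combination and -1.37 under bortezomib.

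**Figure D3:**
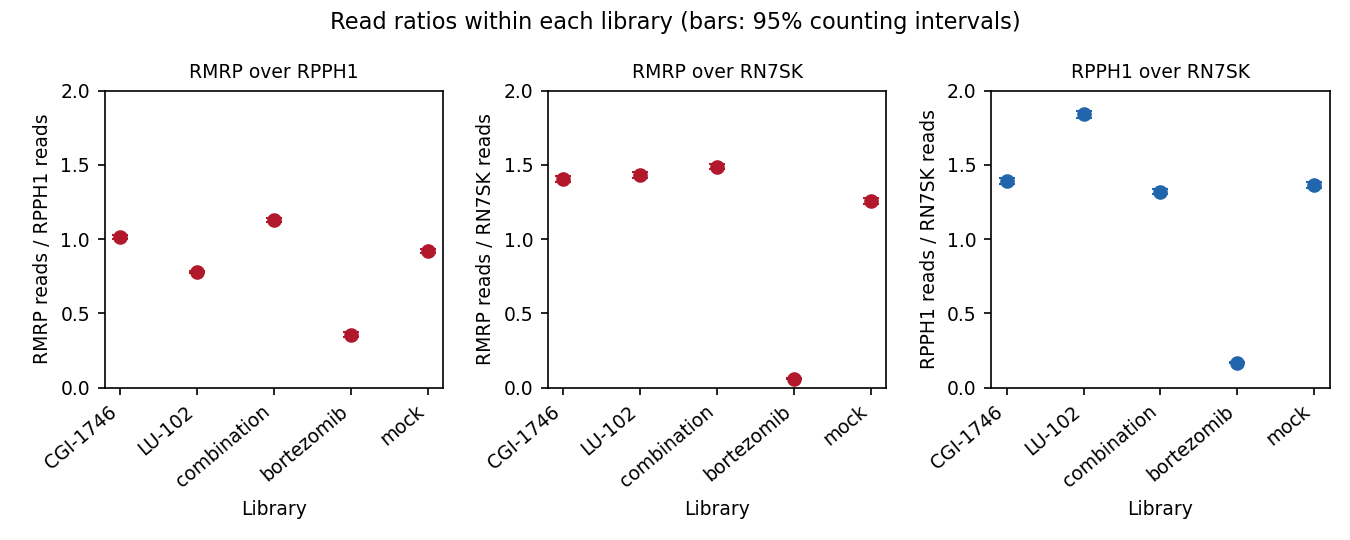
Ratios of recovered reads within each library, for RMRP over RPPH1, RMRP over RN7SK and RPPH1 over RN7SK, with bars for 95% counting intervals. Ratios to RN7SK lie between 1.26 and 1.84 except with bortezomib, where they are 0.0594 for RMRP and 0.166 for RPPH1.

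The other RNA polymerase III transcripts measured were not low with bortezomib as RMRP and RPPH1 were. Of 20 symbols looked for beside those of the RNA5S family, 7 were in the table, and with bortezomib 6 of the 7 were above 0 and RNU6ATAC below it, with a median log2 ratio of 0.61. RN7SL1 had a level of 34062 with bortezomib, against 18035 in mock (log2 0.92), and RN7SL2 had 36441 with bortezomib, against 16597 in mock (log2 1.13). RN7SL1 and RN7SL2 are near-identical copies, so how reads were split between them is uncertain. RN7SL3, a further copy, had a level of 289 with bortezomib, against 109 in mock (log2 1.40). RNY1, the RNA of the Ro particle, had 16 reads with bortezomib, against 13 reads in mock. BCYRN1, a primate cytoplasmic RNA, had 4 reads with bortezomib, against 3 in mock, and RNU6ATAC, the spliceosomal RNA of the minor spliceosome, had 3 reads, against 4 in mock, counts too low to give a direction. Scaled to RN7SK, the direction held for RN7SL1, RN7SL2 and RN7SL3 and turned for RNY1 and BCYRN1.
With the other treatments the same list had median log2 ratios of 0.06 with CGI-1746 over 7 genes, and 0.43 with LU-102 and 0.37 with the combination over 6 genes each. RN7SL1 was at -0.02, 0.57 and 0.42 with CGI-1746, LU-102 and the combination. RPPH1 at 0.73 with LU-102 lay between RN7SL2 at 0.66 and RN7SL3 at 0.77, and RMRP at 0.48 lay between RN7SK at 0.29 and RN7SL1 at 0.57.

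**Figure D4:**
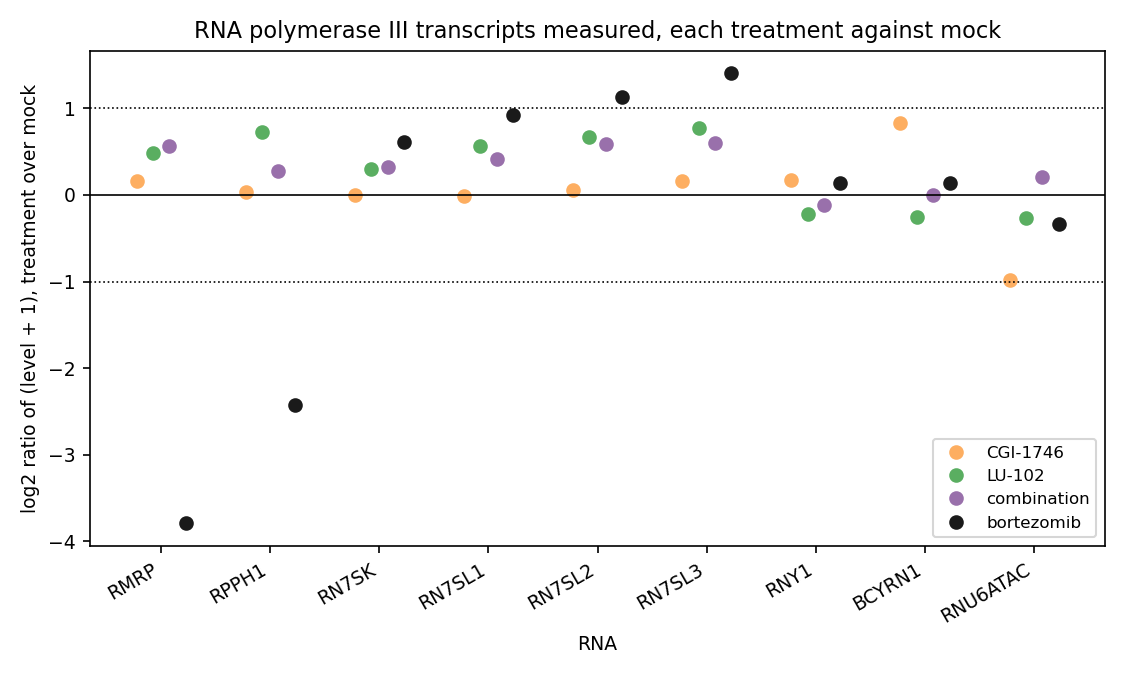
Log2 ratio of level + 1 to mock for RMRP, RPPH1 and the 7 other RNA polymerase III transcripts measured, with 1 point per treatment and dotted lines at 2-fold. With bortezomib, RMRP at -3.79 and RPPH1 at -2.42 are the only points below -1, while RN7SK and the 3 RN7SL genes lie between 0.61 and 1.40.

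Short nuclear RNAs made by RNA polymerase II were the list furthest above mock with bortezomib. Of 9 measured, 6 were 2-fold or more higher, beside 1.38% of all genes, with a median log2 ratio of 4.06. SNORD133, which entered through its symbol only, was 2-fold lower, as 48.1% of all genes were. SNORD3D and SNORD3A, copies of the U3 RNA that guides early cuts of the ribosomal RNA precursor, were at 5.85 and 5.21. RNU12, RNU4-2 and RNU4-1, spliceosomal RNAs, were at 5.19, 4.21 and 4.06, and RNVU1-7 at 2.48. The value of RNU12 rests on a low mock level of 1.59, against 93.8 with bortezomib. The U3 and the RNU4 genes are multicopy families, so reads may be split among copies.

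Of the 12 protein genes of RNase P and RNase MRP looked for, 5 are in the table, namely POP5, POP7, RPP21, RPP25 and RPP25L, and the other 7 were not analysed here. POP5, a subunit close to the RNA core, had a level of 2.59 with CGI-1746, 1.82 with LU-102, 2.30 in the combination and 0.224 under bortezomib, against 2.23 in mock. POP7, which pairs with RPP25 on the RNA, had 11.03, 14.3, 15.9 and 9.05 in the same order, against 12.2 in mock. The plain ratio of bortezomib to mock was thus lowest for POP5, at 0.101, and highest for POP7, at 0.741. POP5, RPP21 and RPP25L were below a level of 1 with bortezomib. No reads were recovered for the protein genes, so the order of their ratios has no counting interval.
RPP25, the partner of POP7, had levels of 5.52, 5.62, 6.15 and 2.21, against 6.001 in mock. RPP21, a subunit known from RNase P, had 2.57, 2.89, 3.55 and 0.806, against 2.36 in mock. RPP25L, a paralogue of RPP25, had 2.72, 2.89, 3.08 and 0.805, against 2.44 in mock. All 5 were lower with bortezomib than in mock as deposited, with POP7 turning to higher under median-of-ratios scaling. POP5 at -1.40 and RPP25 at -1.12 were 2-fold or more lower on the log2 scale of level + 1, and the median of the 5 was -0.93, beside -0.98 over all genes. That is 2 of 5, beside 48.1% of all genes. Under median-of-ratios scaling it was 1 of 5 with a median of -0.38, beside 727 of 4181 genes with a median of -0.44. With no pseudocount it was 4 of 5 with a median of -1.55, beside 3033 of 4189 genes with a median of -1.63. With a pseudocount of 5 it was 0 of 5 with a median of -0.36, beside 486 of 4189 genes with a median of -0.38. With CGI-1746, LU-102 and the combination the medians were 0.09, 0.17 and 0.25, and scaled to RN7SK the LU-102 median was -0.06. All 5 were above 0 with the combination, POP5 and RPP25 by 0.03 each, which turned to below 0 under median-of-ratios scaling.

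**Figure D5:**
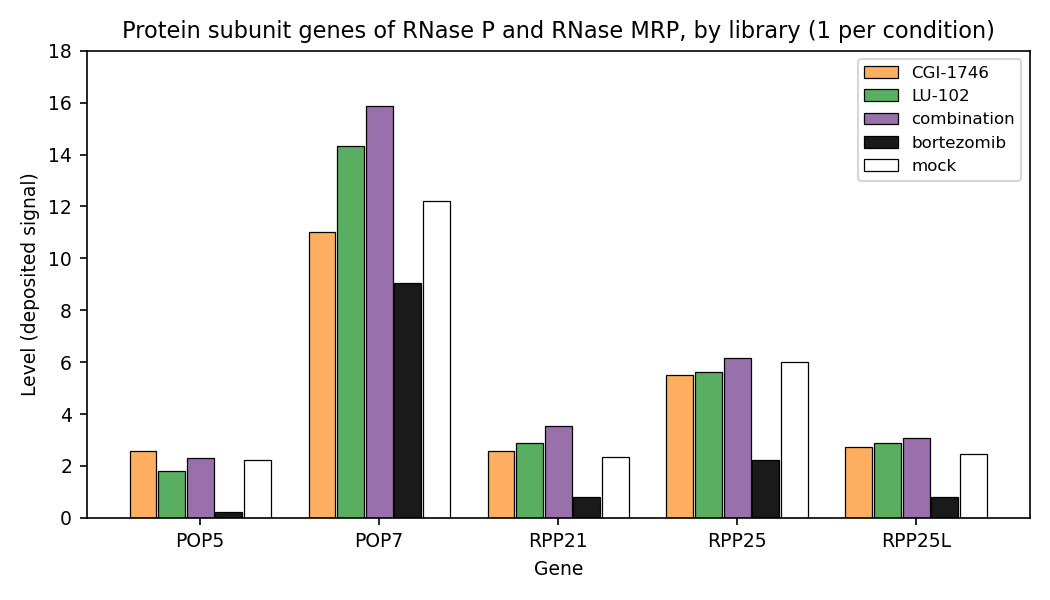
Deposited levels of the 5 protein subunit genes in each library, as bars from 0, with 1 library per condition. The bortezomib bar is the lowest for each gene, from 0.224 for POP5 to 9.05 for POP7.

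Genes for the RNA polymerase III machinery were mostly lower with bortezomib, as all genes were. Of 33 looked for, 10 were measured, 9 were below 0 and 3 were 2-fold or more lower, beside 48.1% of all genes, with a median of -0.75 beside -0.98. The count was 0 of 10 under median-of-ratios scaling, beside 727 of 4181 genes. It was 8 of 10 with no pseudocount, beside 3033 of 4189 genes. MAF1, the repressor of RNA polymerase III, had a level of 5.60 with bortezomib, against 15.4 in mock (log2 -1.32). GTF3A, the factor for the small ribosomal RNA made by this polymerase, was at -1.23 and GTF3C4 at -1.18. SNAPC2, of the complex that binds promoters of the RMRP and RPPH1 kind, had 4.93 with CGI-1746, 4.38 with LU-102, 5.35 in the combination and 1.79 under bortezomib, against 3.63 in mock. SSB, the La protein that binds the ends of new polymerase III transcripts, was at -0.94 and CRCP, a polymerase subunit, at 0.29, which fell below 0 when scaled to RN7SK.

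Genes that act on tRNA precursors beside RNase P, and those of the protein-only mitochondrial RNase P, were low with bortezomib about as often as all genes were. Of 14 looked for, 8 were measured and 4 of these 8 were 2-fold or more lower, beside 48.1% of all genes, with a median of -1.08 beside -0.98. The count was 2 of 8 under median-of-ratios scaling, beside 727 of 4181 genes. It was 7 of 8 with no pseudocount, beside 3033 of 4189 genes. All 8 were below 0 as deposited, with TSEN34 turning above 0 under median-of-ratios scaling. TRMT10C and HSD17B10, both of mitochondrial RNase P, had levels of 0.845 and 1.16 with bortezomib, against 5.24 and 5.27 in mock (log2 -1.76 and -1.54). ELAC2, which trims the other end of tRNA precursors, was at -1.28 and TRMT6, of a tRNA methyltransferase, at -1.25.

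Transcripts of the ribosomal RNA repeat, whose precursor RNase MRP cuts, were higher with bortezomib. RNA45SN3 had a level of 676 with CGI-1746, 597 with LU-102, 876 in the combination and 13832 under bortezomib, against 643 in mock (log2 4.43 for bortezomib). RNA45SN2 had 41.6, 31.7, 44.0 and 897 in the same order, against 33.8 in mock (log2 4.69). RNA45SN1 and RNA45SN5 had identical values of 575, 501, 737 and 7536, against 577 in mock (log2 3.71). These genes hold the mature ribosomal RNAs as well as the spacers, are near-identical copies, and give no measure of the cut itself. How far removal of ribosomal RNA differed between libraries was not tested. CCNB2, a mitotic cyclin gene listed because RNase MRP cuts a B-cyclin mRNA in yeast, had a level of 1.95, 1.83, 2.03 and 0.146, against 2.18 in mock (log2 -1.47). CCDC107, the neighbour of RMRP, had 1.24, 1.53, 1.41 and 0.351, against 1.48 in mock. Its log2 ratio with bortezomib was -0.87, beside an all-gene median of -0.98. At these low levels the added 1 matters, and with no pseudocount CCDC107 was at -2.07, beside -1.63.

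The genes most like each RNA over the 4 log2 ratios of level + 1 to mock were sought by Euclidean distance over the 1480 genes that reached a level of 5 in any library. For RMRP the nearest were H2AC17 at 0.430, H4C12 at 0.433, H2BC6 at 0.479, H2BC5 at 0.511 and H2BC21 at 0.533, all histone genes. With bortezomib their log2 ratios were -3.93, -3.89, -4.13, -3.44 and -3.82, against -3.79 for RMRP. H2BC6, H2BC5 and H2BC21 had levels of 0.618, 0.167 and 0.218 with bortezomib, against 27.4, 11.6 and 16.1 in mock. Their nearness to RMRP thus depends on the added 1, and their plain ratios are lower. For RPPH1 the nearest were the histone genes H3C10 at 0.324 and H2AC12 at 0.385, then IFITM2 at 0.422, MIF at 0.455 and RPS15 at 0.504, with log2 ratios with bortezomib of -2.38, -2.35, -2.28, -2.10 and -2.48. IFITM2 had a level of 0.878 with bortezomib, against 8.14 in mock, so its place likewise depends on the added 1. RPPH1 was the 103rd nearest to RMRP, at a distance of 1.43, and RMRP was the 779th nearest to RPPH1. The distance rests on 4 values per gene that share the mock library.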

How the data were processed

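Total RNA of 5 libraries, 1 per condition, was sequenced by a service company with paired reads of 150 bases, per the labels' protocols. Partek and hg38 are named in the submitters' processing notes; the aligner, annotation, strand and normalization are not stated in the sources used here. A normalized signal per gene and library was deposited by the authors, named a least squares mean per the file headers, and 7 columns that repeat a library were not used.

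Libraries were compared on log2(level + 1) for genes that reached a level of 1 in one of the libraries compared, in 9 comparisons, with 2-fold as the threshold. No test was run, since there are no replicates. Whole reads were recovered from level times gene length, tested on simulated data, with exact Clopper-Pearson 95% intervals of ratios from scipy 1.17.1. The recovered reads of RMRP and RPPH1 limit ratios to a few percent, and no more can be said of the spread between cultures. Sequences came from GENCODE 29 and RefSeq tables and were aligned with Biopython 1.88; Python 3.11.15, numpy 2.4.6, pandas 2.3.3 and matplotlib 3.10.9 were used. The members and gene lists were chosen with earlier results of these data known. Named genes were RMRP, RPPH1, all measured genes of the protein, polymerase III transcript, substrate and neighbour lists, up to 6 of each other list furthest from 0 with bortezomib, and the 5 nearest genes of each RNA. RN7SK in detail, CRCP, TSEN34, SNORD133, the motifs and the class of short RNA genes were chosen after values were seen. Alternatives were 2 other scalings, pseudocounts of 0 and 5, level floors, recovered reads and, added after seeing the data, scaling to RN7SK.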

Additional observations from a re-analysis of the deposited data

Results flagged for a closer look

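The effect of CGI-1746 on RPPH1 was near 0 without LU-102 and below 0 with it. On the log2 scale of level + 1 it was -0.45 in the presence of LU-102, against 0.03 in its absence, which gives the departure of -0.48 from the sum of the single effects. Each value compares 1 library with 1 other, so the difference was not tested.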

How the results depend on the processing

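With 1 library per condition no replicate could be left out, so a value is called moved when it left its own 95% counting interval. No paired analysis was possible because each group has 1 library and all carry the same replicate number. RMRP and RPPH1 kept a bortezomib level below mock under every scaling and pseudocount tried, and pseudocounts of 0 and 5 moved neither. By median-of-ratios scaling the log2 ratios to mock with CGI-1746, LU-102, the combination and bortezomib were 0.20, 0.52, 0.46 and -2.82 for RMRP and 0.068, 0.76, 0.17 and -1.45 for RPPH1. By the sum of levels without the 10 most abundant genes of any library, those with LU-102, the combination and bortezomib were 0.50, 0.45 and -2.84 for RMRP and 0.75, 0.16 and -1.47 for RPPH1. Scaled to RN7SK, they were 0.19, 0.25 and -4.40 for RMRP, and 0.43 with LU-102 and -3.03 with bortezomib for RPPH1. For RMRP and RPPH1 themselves the sign changed in 4 cases, and some medians of the gene lists also changed sign. Scaled to RN7SK, RPPH1 was at -0.046 for the combination against mock and -0.073 against CGI-1746, beside 0.28 and 0.25 as deposited. RMRP for the combination against LU-102 was at -0.052 by median-of-ratios, beside 0.09 as deposited. It was at -0.051 by the sum without the 10 most abundant genes, and the cause was not tested. Departures from additivity were -0.66 for RPPH1 and -0.25 for RMRP by median-of-ratios. Genes 2-fold or more higher and lower with bortezomib than in mock numbered 58 and 2015 as deposited, and 208 and 727 by median-of-ratios. They numbered 200 and 749 by the sum without the 10 most abundant genes, and 41 and 2973 scaled to RN7SK. They numbered 84 and 3033 with a pseudocount of 0, and 39 and 486 with one of 5. A floor of 5 in place of 1 on the level left 966 genes lower with bortezomib than in mock, 1013 higher with the combination than with bortezomib and 898 higher with LU-102 than with bortezomib, against 2015, 2073 and 1805. Far fewer genes were compared at that floor, since only 1480 genes reached a level of 5 in any library. The smaller counts are thus not smaller shares of the genes compared. In the other comparisons at most 9 genes passed 2-fold as deposited.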
